A study of Mus musculus with 12 samples.

Results

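The small leucine-rich proteoglycans (SLRPs) are a family of secreted matrix proteins, and 10 of their genes were followed here across 12 microarrays of mouse embryonic fibroblasts. The genes were Dcn, Bgn, Aspn, Lum, Kera, Fmod, Prelp, Omd, Ogn and Epyc, taken from 19938 measured genes. They were selected on earlier values of these arrays, as a family that was higher at day 8 than at day 4 without SKO and was thought to lose that difference with SKO. Differences by day and by SKO are therefore given for these genes as a description, with no test. Each gene had 1 probe set that the platform annotation assigns to it alone.

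The fibroblasts came from a cross of OG2 with 129/sv, per the labels. OG2 is commonly known as a mouse line with a green fluorescent reporter driven by the Pou5f1 promoter, which the cell type label does not spell out. Group1 received SKO, a set of reprogramming factors whose letters the labels do not spell out (commonly Sox2, Klf4 and Oct4). Group2 received no SKO. Every culture also received a retrovirus that carried microRNA cluster B, microRNA cluster C or nothing (the blank virus), and the labels do not list the microRNAs of either cluster. All were infected on 2 occasions, kept in mouse embryonic stem cell medium and lysed 4 or 8 days after the first infection, after removal of feeder cells. Each of the 12 combinations had 1 array. Whatever else differed between Group1 and Group2 cannot be told apart from SKO.

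Small leucine-rich proteoglycans have a core protein built of leucine-rich repeats that binds collagen, and most of them carry chains of chondroitin, dermatan or keratan sulfate. In connective tissue they coat collagen fibrils and govern how thick and how regularly spaced these grow, and several bind growth factors such as those of the TGF-beta family. Fibroblasts are a main source of decorin, biglycan and lumican, whereas keratocan and epiphycan are best known from the cornea and from growth-plate cartilage.

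Most of these genes lie in short runs of neighbours, which is why their start regions are shown. In RefSeq of GRCm38.p6, Dcn, Lum, Kera and Epyc follow each other on chromosome 10, Aspn, Omd and Ogn on chromosome 13, and Prelp and Fmod on chromosome 1, with no other measured gene inside a run. Bgn lies alone on chromosome X. Promoter sequences matched 8 of the 10 genes. The 250 bases before the start were printed for Epyc, whose day difference was not seen with SKO, and for Aspn and Ogn, in which it was present. Capitals mark TATAAA or GGAATG on either strand.
Epyc, chr10:97643818-97644067, plus strand: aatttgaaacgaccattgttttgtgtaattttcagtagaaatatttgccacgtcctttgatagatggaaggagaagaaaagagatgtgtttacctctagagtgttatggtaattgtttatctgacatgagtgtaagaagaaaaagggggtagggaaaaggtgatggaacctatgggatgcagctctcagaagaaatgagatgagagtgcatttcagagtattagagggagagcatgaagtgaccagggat
Aspn, chr13:49544193-49544442, plus strand: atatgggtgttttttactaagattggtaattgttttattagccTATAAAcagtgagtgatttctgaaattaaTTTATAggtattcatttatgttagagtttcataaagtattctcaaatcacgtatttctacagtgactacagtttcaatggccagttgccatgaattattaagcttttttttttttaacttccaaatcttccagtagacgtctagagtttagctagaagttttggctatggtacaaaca
Ogn, chr13:49607765-49608014, plus strand: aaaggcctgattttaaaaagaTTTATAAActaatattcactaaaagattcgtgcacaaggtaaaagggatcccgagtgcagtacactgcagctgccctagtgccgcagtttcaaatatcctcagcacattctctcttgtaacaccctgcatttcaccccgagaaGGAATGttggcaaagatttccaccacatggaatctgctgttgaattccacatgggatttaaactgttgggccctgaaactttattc
The windows were searched on both strands for 4 motifs. The core promoter motif TATAAA occurred in 12.4% of all 32817 windows of this length, the AP-1 motif TGANTCA in 6.75%, the TEAD motif GGAATG in 12.6% and the SMAD motif CAGACA in 17.1%, so that matches are common. In the printed Epyc window none was found. A second Epyc start window, which overlaps the gene model and is not shown, held GGAATG 188 bases before its start on the minus strand. The Aspn window held TATAAA on the plus strand 207 bases and on the minus strand 178 bases before the start. The Ogn window held GGAATG 86 bases before the start, and TATAAA at 227 bases on the plus strand and at 229 bases on the minus strand, overlapping itself. The windows of Fmod, Omd and Bgn held none of the motifs, and those of Prelp and Kera overlapped a gene model and are not shown.

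All values are deposited log2 expression values, so a difference of 1 is a 2-fold difference. The arrays' medians over all genes lay between 5.26 and 5.36 and their lower quartiles between 3.76 and 3.98, and a difference between a value above such a quartile and one below it is best read as a lower bound. Of 12 fibroblast markers 11 were measured, and none lay below the lower quartile on all arrays of any arm and day. Their mean level was 10.22 to 10.53 without SKO and 9.31 to 9.60 with SKO. The day 8 array with SKO and cluster C stood apart from the other day 8 arrays with SKO, with a mean level of 5 pluripotency markers of 7.62 against 5.47 with blank virus and 5.62 with cluster B. The 5 epithelial markers averaged 7.22 there, against 6.25 and 6.59.

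Without SKO, 8 of the 10 genes were higher on all 3 day 8 arrays than on any day 4 array, where 14.3% of all genes were. The 8 genes were Epyc, Kera, Fmod, Lum, Dcn, Aspn, Ogn and Bgn. The rule chose the genes on this difference, so nothing is read from that share. The median day difference of the 10 genes was 1.38 without SKO, against 0.01 over all genes. By virus this median was 1.43 with the blank virus, 1.36 with cluster B and 1.35 with cluster C, so without SKO the median hardly moved with the virus. With SKO, 4 genes (Aspn, Ogn, Fmod and Dcn) were higher on all day 8 arrays, where 14.2% of all genes were, and the median was 0.34. By virus the median with SKO was 0.26 with the blank virus, 0.48 with cluster B and 0.20 with cluster C. The day difference with SKO minus that without SKO had medians of -0.83, -0.54 and -1.05 in the same order. The loss thus differed more between viruses than the day difference without SKO did. The day difference was not seen with SKO for Epyc, Kera and Lum, reduced for Fmod, Dcn and, by less, Aspn, nearly equal for Bgn and larger for Ogn.

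**Figure D1:**
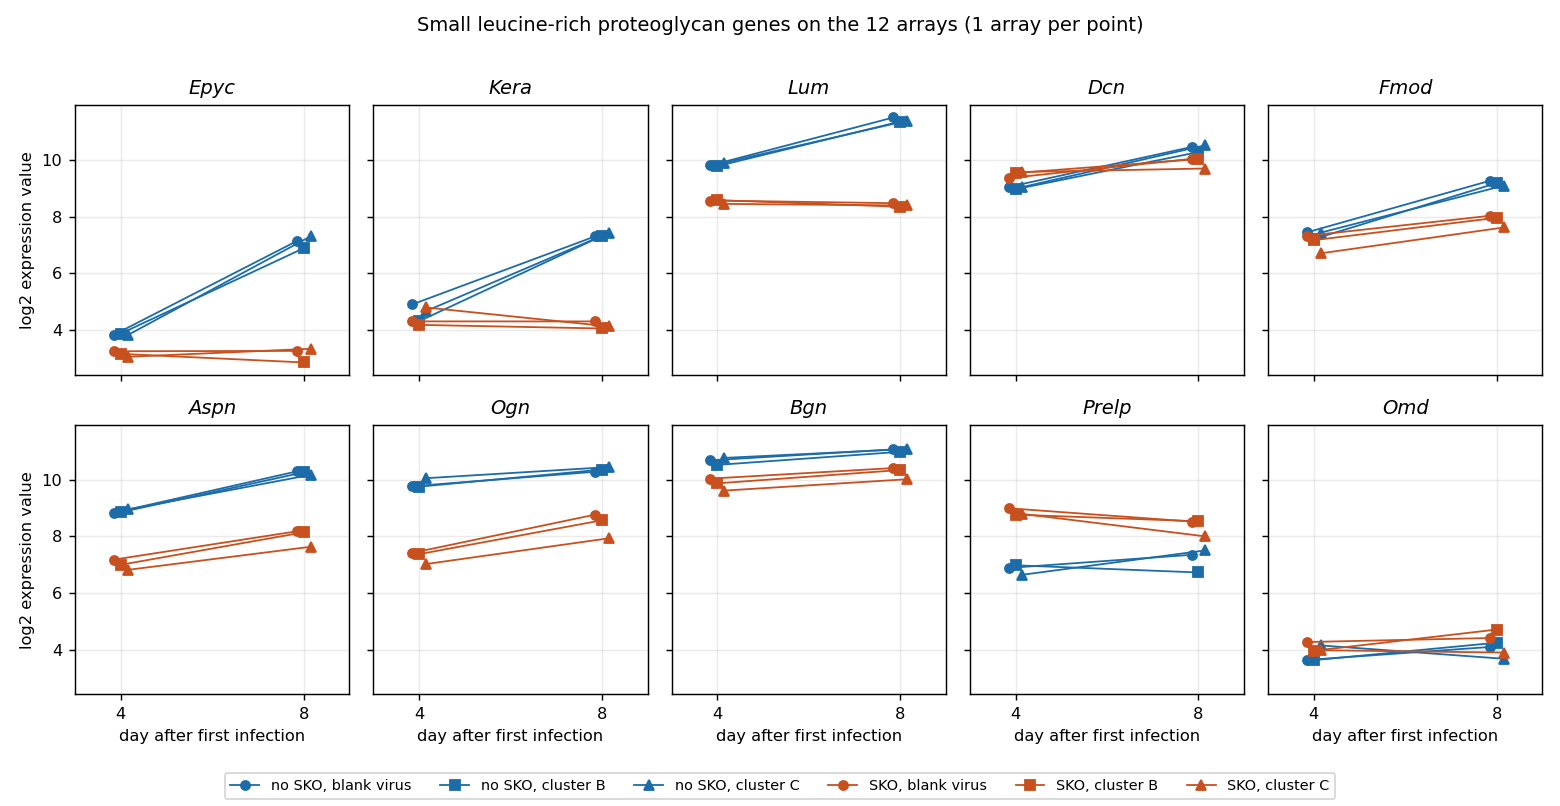
Deposited log2 expression value (vertical axis) of each of the 10 genes at day 4 and day 8 after the first infection, with 1 array per point. Blue marks arrays without SKO, orange those with SKO, and symbols the virus. Epyc, Kera and Lum are higher at day 8 without SKO and not with SKO, and Prelp is the gene whose SKO arrays lie above the others at both days.

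Decorin, biglycan and asporin form the class whose first members carry chondroitin or dermatan sulfate. Dcn encodes decorin, which binds type I collagen and TGF-beta. Without SKO, Dcn read 9.05, 8.97 and 9.05 at day 4 with blank virus, cluster B and cluster C, and 10.46, 10.28 and 10.52 at day 8. With SKO, Dcn read 9.36, 9.54 and 9.58 at day 4 and 10.04, 10.03 and 9.70 at day 8. Thus the order of the arms turned over: all 3 SKO arrays lay above the others at day 4 and below them at day 8, with no overlap at either day. The SKO difference of Dcn was 0.47 ± 0.14 at day 4 and -0.50 ± 0.29 at day 8 (mean ± SD over the 3 viruses, as in all differences that follow). Its day difference was 1.40 ± 0.08 without SKO, a 2.63-fold higher level, and 0.43 ± 0.28 with SKO.

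Bgn encodes biglycan, a close relative of decorin that is also a ligand of Toll-like receptors. On the arrays without SKO it read 10.68, 10.52 and 10.77 at day 4 and 11.07, 10.99 and 11.08 at day 8, in the order blank virus, cluster B, cluster C used throughout. On those with SKO it read 10.04, 9.87 and 9.62 at day 4 and 10.41, 10.34 and 10.02 at day 8. Days did not overlap without SKO, but with SKO the day 8 array of cluster C lay below the day 4 array of blank virus. The day differences were nearly equal, 0.39 ± 0.07 without SKO and 0.41 ± 0.05 with SKO. The SKO arrays were lower at both days, by -0.82 ± 0.29 at day 4 and -0.79 ± 0.24 at day 8. The arms of Bgn thus differed by nearly as much at day 4 as at day 8.

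Aspn encodes asporin, which binds collagen and TGF-beta and carries no glycosaminoglycan chain. Its values without SKO were 8.84, 8.86 and 8.95 at day 4 and 10.30, 10.26 and 10.17 at day 8. With SKO they were 7.18, 7.002 and 6.82 at day 4 and 8.18, 8.15 and 7.64 at day 8. No SKO array reached the lowest array without SKO at either day. Aspn differed between days by 1.36 ± 0.13 without SKO (2.57-fold) and by 0.99 ± 0.17 with SKO (1.98-fold). Its SKO difference was -1.88 ± 0.24 at day 4 and -2.25 ± 0.24 at day 8, a level 4.77-fold lower at day 8.

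Lumican, keratocan, fibromodulin, osteomodulin and prolargin belong to the class that often carries keratan sulfate. Lum encodes lumican, which sets fibril diameter and spacing in cornea and skin. Without SKO, Lum read 9.81, 9.78 and 9.90 at day 4 and 11.50, 11.36 and 11.39 at day 8. With SKO it read 8.57, 8.58 and 8.45 at day 4 and 8.48, 8.35 and 8.39 at day 8. All SKO arrays were below the others at both days, and every virus gave a lower value at day 8 than at day 4. The day difference of Lum was 1.58 ± 0.10 without SKO (2.99-fold) and -0.13 ± 0.09 with SKO. At day 8 the SKO difference was -3.01 ± 0.02, an 8.03-fold lower level that was nearly the same with each virus.

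Kera encodes keratocan, a keratan sulfate proteoglycan of the corneal stroma. Kera read 4.91, 4.31 and 4.67 at day 4 without SKO and 7.31, 7.32 and 7.43 at day 8. On the SKO arrays it read 4.31, 4.19 and 4.80 at day 4 and 4.31, 4.06 and 4.13 at day 8. At day 4 the arms overlapped, with an SKO difference of -0.20 ± 0.37. At day 8 they lay far apart, with an SKO difference of -3.19 ± 0.16, a 9.11-fold lower level. The day difference was 2.72 ± 0.30 without SKO (6.60-fold) and -0.27 ± 0.35 with SKO, where the size rested on cluster C with -0.67 against -0.00 with blank virus and -0.13 with cluster B.

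Fmod encodes fibromodulin, a regulator of fibril assembly in tendon and cartilage. Without SKO its values were 7.45, 7.21 and 7.44 at day 4 and 9.27, 9.19 and 9.09 at day 8. With SKO they were 7.33, 7.17 and 6.71 at day 4 and 8.03, 7.96 and 7.62 at day 8. Both arms overlapped at day 4, and at day 8 they did not. Fmod differed between days by 1.82 ± 0.16 without SKO (3.53-fold) and by 0.80 ± 0.10 with SKO (1.74-fold), so under this measure the day difference was smaller with SKO and did not vanish.

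Prelp encodes prolargin, which binds collagen and heparan sulfate at basement membranes. It read 6.89, 6.98 and 6.65 at day 4 without SKO and 7.35, 6.73 and 7.51 at day 8. With SKO it read 8.99, 8.77 and 8.80 at day 4 and 8.53, 8.54 and 8.00 at day 8. Here the SKO arrays lay above all others at both days, which held for none of the other 9 genes. The SKO difference was 2.01 ± 0.20 at day 4, a 4.03-fold higher level, and 1.16 ± 0.66 at day 8. The day difference without SKO differed in sign between viruses, from -0.25 with cluster B to 0.86 with cluster C. With SKO it was -0.50 ± 0.28 and below 0 with every virus.

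Omd encodes osteomodulin, a proteoglycan of bone matrix. It was dim throughout, between 3.64 and 4.25 without SKO and between 3.91 and 4.72 with SKO. The days overlapped in both arms, and the day difference was 0.20 ± 0.59 without SKO and 0.27 ± 0.43 with SKO. Omd thus showed neither the day difference nor its loss, although it lies between Aspn and Ogn on the chromosome.

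Osteoglycin and epiphycan belong to the class with few leucine-rich repeats. Ogn encodes osteoglycin (mimecan), which takes part in fibril formation in bone and cornea. It read 9.77, 9.76 and 10.06 at day 4 without SKO and 10.28, 10.36 and 10.45 at day 8. On the SKO arrays it read 7.42, 7.38 and 7.03 at day 4 and 8.77, 8.57 and 7.94 at day 8. All SKO arrays lay far below the others, by -2.59 ± 0.38 at day 4 and -1.94 ± 0.52 at day 8 (3.83-fold lower). The day difference was 0.50 ± 0.11 without SKO and 1.15 ± 0.22 with SKO, larger with SKO for every virus. Among the 10 genes it was the 1 whose day difference was greater with SKO by more than the spread between viruses, by 0.65 ± 0.17.

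Epyc encodes epiphycan, a dermatan sulfate proteoglycan of growth-plate cartilage. Without SKO it read 3.84, 3.88 and 3.82 at day 4 and 7.14, 6.89 and 7.31 at day 8. With SKO it read 3.25, 3.16 and 3.06 at day 4 and 3.27, 2.86 and 3.34 at day 8. Every SKO array lay below its lower quartile, and the day 4 arrays without SKO lay near theirs. The differences of Epyc from the day 8 arrays without SKO are therefore lower bounds, and the SKO arrays allow no reading of a day difference, nor of its exact difference between the arms. Its day difference was 3.27 ± 0.24 without SKO, a 9.63-fold higher level, and -0.00 ± 0.29 with SKO. At day 8 the SKO difference was -3.96 ± 0.08, a 15.5-fold lower level and the largest SKO difference among the 10 genes.

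**Figure D2:**
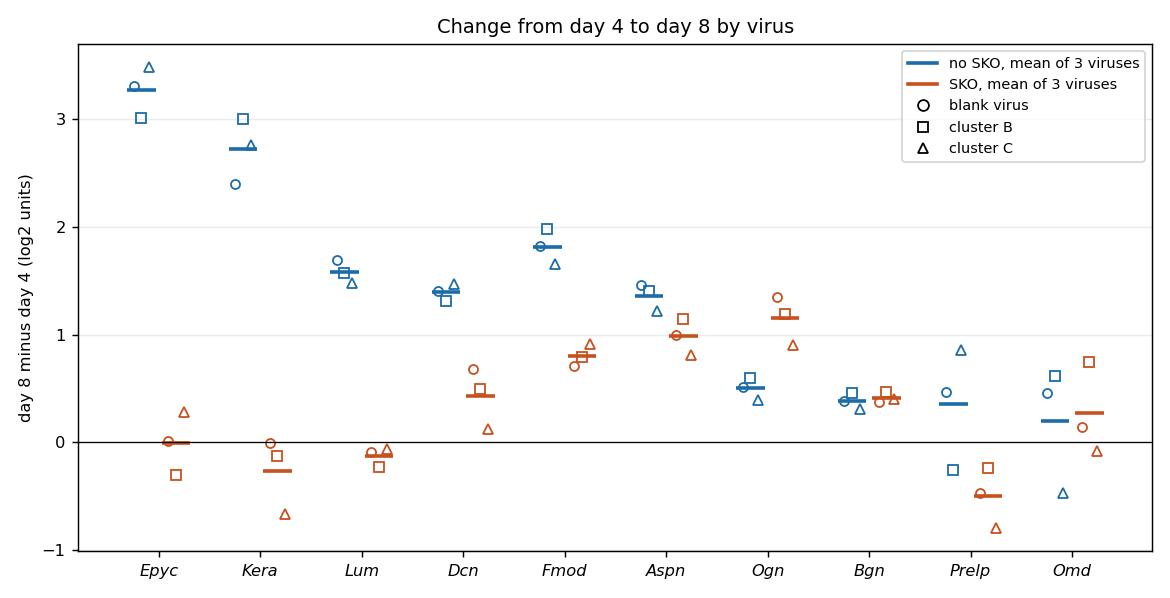
Day 8 minus day 4 in log2 units (vertical axis) for each gene, with 1 symbol per virus and a line at the mean of the 3 viruses. Blue is without SKO and orange with SKO. The means without SKO run from 0.20 for Omd to 3.27 for Epyc, and the SKO mean lies above the other for Ogn, with Bgn and Omd nearly equal in both arms.

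SKO arrays lay below all arrays without SKO for 5 of the 10 genes at day 4 (Ogn, Aspn, Lum, Bgn and Epyc), where 17.9% of all genes did. At day 8 they did so for 8 genes, against 24.2% of all genes, with Kera, Fmod and Dcn added to the 5. Prelp and Omd made up the rest. The median SKO difference of the 10 genes was -0.49 at day 4 and -1.62 at day 8, against -0.04 and -0.07 over all genes. Aspn, Ogn and Bgn were thus already apart at day 4, whereas the arms overlapped at day 4 for Kera and Fmod. The change from day 4 to day 8 with SKO minus that without SKO was -3.27 ± 0.06 for Epyc, -2.99 ± 0.53 for Kera and -1.71 ± 0.15 for Lum. It was -1.02 ± 0.24 for Fmod, -0.97 ± 0.34 for Dcn, -0.38 ± 0.10 for Aspn and 0.03 ± 0.05 for Bgn. Leaving out the day 8 array with SKO and cluster C gave -3.41 for Epyc, -2.79 for Kera, -1.74 for Lum and -0.81 for Dcn. The day 4 array with SKO and cluster C then carries no weight in these values either. The SKO arrays of Epyc lay below their lower quartiles, so the exact size and the small spread of its values are not read. Kera was also low with SKO, and the order of Epyc and Kera is not read either.

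In these bulk cultures, fewer cells of a type and less RNA per cell cannot be told apart. The mean levels of tendon, cartilage, bone, macrophage and adipocyte markers were higher at day 8 without SKO and, at day 8, lower with SKO. Those of smooth muscle and endothelial markers did not show both differences. The mean level of 4 tendon markers was 5.92 to 6.01 at day 4 and 6.75 to 6.83 at day 8 without SKO, and 5.16 to 5.56 over all SKO arrays, and 4 of 4 were higher on every day 8 array without SKO. For 10 cartilage markers it was 5.19 to 5.27 and then 5.81 to 5.86 without SKO, and 4.82 to 5.17 with SKO, with 7 of 10 higher on every day 8 array without SKO. Comp had the largest rise of the 10 without SKO, from a mean of 5.23 to 8.07, and weighs heavily in that mean level. Col2a1 went the other way without SKO, with 8.29 to 8.65 at day 4 and 8.10 to 8.20 at day 8. Matn1 and Col11a2 overlapped between the days. The 4 measured of 6 bone markers averaged 4.45 to 4.71 and then 5.42 to 5.67 without SKO, against 4.34 to 4.61 with SKO, with 4 of 4 higher at day 8. The 6 macrophage markers averaged 4.91 to 5.20 and then 5.44 to 5.63 without SKO, against 4.76 to 5.19 with SKO, with 5 of 6 higher at day 8. The 6 adipocyte markers averaged 4.11 to 4.14 and then 4.36 to 4.46 without SKO, against 3.73 to 3.96 with SKO, with 3 of 6 higher at day 8 and 2 of 6 below the lower quartile on all arrays without SKO. Smooth muscle markers averaged 8.24 to 8.53 without SKO and 6.66 to 7.18 with SKO, with 0 of 5 higher on every day 8 array. Of the 5 endothelial markers, Tek averaged 4.39 at day 4 and 5.10 at day 8 without SKO, and 8.27 and 8.68 with SKO. For Pecam1, Cdh5, Kdr and Cldn5 the arms overlapped at both days. The mean level of the 5 was thus raised by Tek, with 4.22 to 4.61 without SKO and 4.97 to 5.31 with SKO, and 2 of 5 were higher at day 8 without SKO. Beside these day counts, 14.3% of all genes were higher on every day 8 array without SKO. At day 8 the arrays without SKO lay above all SKO arrays for 8 of 11 fibroblast, 8 of 10 cartilage, 3 of 4 tendon, 3 of 4 bone, 5 of 6 macrophage, 4 of 6 adipocyte, 5 of 5 smooth muscle and 0 of 5 endothelial markers, and for 24.2% of all genes. Some markers went the other way, with every SKO array at day 8 above all those without SKO. Among them were Cnmd of cartilage (mean 5.64 with SKO against 4.22), Mkx of tendon (6.24 against 5.83) and Itgam of macrophages (5.93 against 4.52). The part of the listed cell types in the day and SKO differences of the family was not tested.

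Along the chromosomes, neighbours did not share their day differences throughout. On chromosome 10 the day difference without SKO was 1.40, 1.58, 2.72 and 3.27 from Dcn through Lum and Kera to Epyc, while the flanking Btg1 differed by 0.15 ± 0.11 (SE, limma adjusted p = 0.467) and Gm10754 by -0.10. Gm10754 read 1.24 to 2.16 over all arrays, far below the lower quartiles, so a day difference of it could go unseen. On chromosome 13, Ecm2, the family relative beside Aspn, rose by 0.95 ± 0.14 (SE) without SKO from below the lower quartile, and Nol8 on the other side differed by -0.15. On chromosome 1, Btg2, an anti-proliferative gene next to Fmod, fell by 1.57 ± 0.09 (SE) without SKO on the log2 scale (limma adjusted p = 4.57e-05), from 7.97 to 6.40, and stood at 6.76 and 6.75 with SKO. Optc, next to Prelp, differed by 0.07. On chromosome X, Haus7 and Atp2b3 beside Bgn differed by 0.13 and 0.07.

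**Figure D3:**
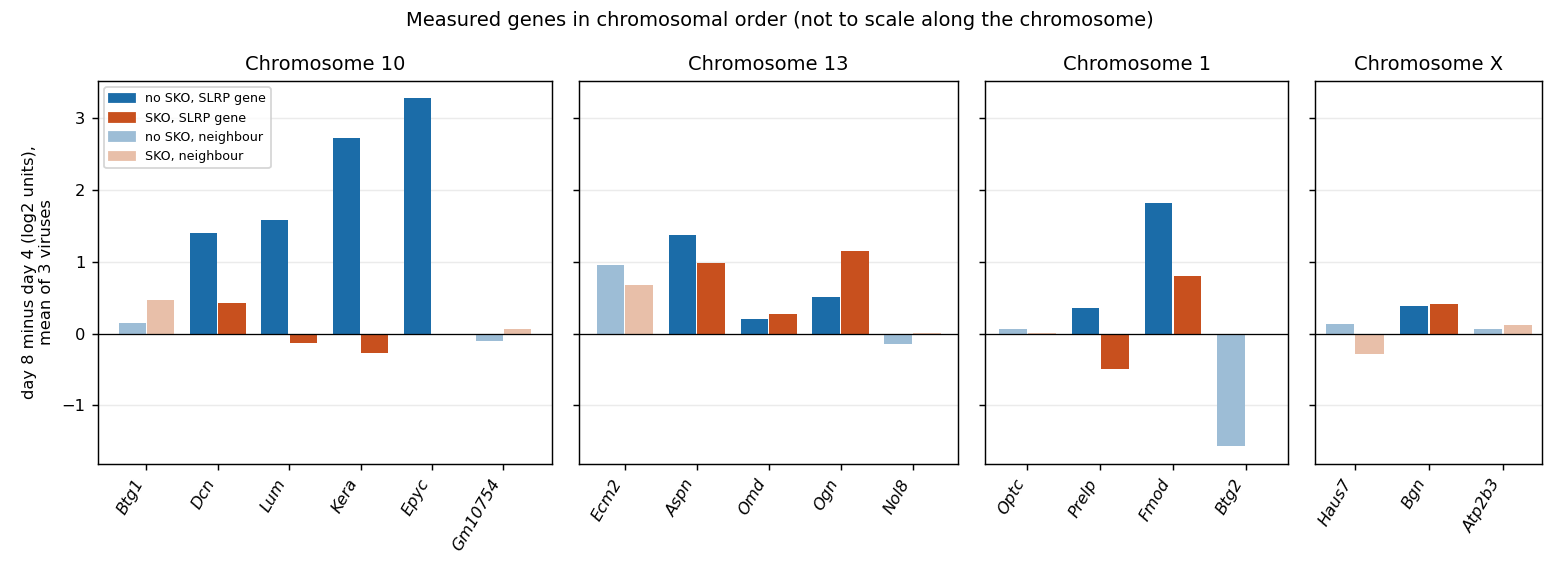
Day 8 minus day 4 in log2 units (vertical axis, mean of 3 viruses) for measured genes in their order along chromosomes 10, 13, 1 and X, with distances not to scale. Strong colours are the 10 genes and pale colours their neighbours, blue without SKO and orange with SKO. On chromosome 10 the blue bars grow from 1.40 at Dcn to 3.27 at Epyc, and the orange bars of Lum, Kera and Epyc lie at or below 0.

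The genes differed in how alike they were over the 12 arrays, which share SKO and day, so correlations are a description. Kera and Epyc had a Pearson r of 0.98, Bgn and Ogn 0.98, and Bgn and Aspn 0.98, while Prelp and Ogn had -0.88. Dcn had r of 0.39 to Bgn and 0.48 to Aspn, and its closest member was Fmod with 0.84. An SD of at least 0.5 over the arrays was found for 1491 genes, a number that includes members of the family. Among those outside the family, Col8a2, Tmtc1, Comp, Clec11a and Igf1 were the most like the mean of the family. Their r ran from 0.977 for Igf1 to 0.991 for Col8a2, a collagen chain of Descemet's membrane. Comp, a cartilage and tendon matrix protein, stood at 5.23 at day 4 and 8.07 at day 8 without SKO and at 4.37 and 5.69 with SKO. The closest match of both Kera (0.980) and Epyc (0.989) was Has2, a hyaluronan synthase. Ltbp2, which encodes a protein of microfibrils, was closest to Bgn (0.978) and Aspn (0.994), and Ptx3, a secreted pentraxin, to Lum (0.996). The closest genes were Agtr1a for Dcn (0.960), Ecrg4 for Fmod (0.988), Lsp1 for Ogn (0.991), Ccnd1 for Prelp (0.976) and Fam180a for Omd (0.792).

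The microRNA clusters were not part of the choice of genes, so their effects could be tested. A gene passed at a limma Benjamini-Hochberg adjusted p under 0.05 over all 19938 genes, in a fit whose spread is the difference of a cluster effect between the days. Nothing says that the arrays came from separate experiments, so p-values measure that spread alone. In 8 comparisons 0 of the 10 genes passed. With SKO, 0.0100% of all genes passed for cluster B against blank virus, 0.0201% for cluster C against blank virus and 0.0201% for cluster C against cluster B. Without SKO 0% passed in the same 3 comparisons, and 0% passed for the cluster B and cluster C effects with SKO minus without SKO. Over all genes, 614, 1359 and 1102 had an unadjusted p under 0.05 in the 3 comparisons with SKO, 1169, 941 and 1260 without SKO, and 1036 and 1155 for the 2 differences of effects.

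The lower values seen with cluster C and SKO were the largest cluster differences of the family, and they missed the threshold. With SKO, 9 of the 10 estimates for cluster C against blank virus were below 0, with a median of -0.38 against -0.01 over all genes. Ogn gave -0.61 ± 0.14 (SE, limma adjusted p = 0.579), Fmod -0.52 ± 0.13 (adjusted p = 0.641), Aspn -0.45 ± 0.13 (0.641) and Bgn -0.41 ± 0.12 (0.641), the 4 with an unadjusted p under 0.05. Ogn was lower by -0.39 at day 4 and -0.83 at day 8, Fmod by -0.62 and -0.41, Aspn by -0.36 and -0.55, and Bgn by -0.42 and -0.40. These 4 genes were thus lowest on the cluster C array at both days with SKO. Lum gave -0.10 ± 0.12 and Epyc -0.06 ± 0.17. Kera was above 0 with 0.16 ± 0.19, from 0.49 at day 4 and -0.17 at day 8.

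Ogn passed in 1 alternative fit, with a mean-variance trend and robust empirical Bayes (limma adjusted p = 0.0281). Its adjusted p was 0.288 among brighter genes alone, and over leaving out each array it ran from 0.403 to 0.981. Without the day 8 array with SKO and cluster C, on which the pluripotency and epithelial markers were highest, the estimate of Ogn was -0.43. The part of those cells in the lower values was not tested. Without SKO, cluster C against blank virus gave Ogn 0.22 ± 0.14 and a median of 0.01. The cluster C effect with SKO minus without SKO was -0.84 ± 0.20 for Ogn (adjusted p = 0.759) and below 0 for 9 of the 10 genes. For cluster C against cluster B the median was -0.27 with SKO and 0.17 without.

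Cluster B against blank virus gave smaller differences. The median was -0.11 with SKO, with estimates from -0.25 for Epyc to 0.09 for Dcn, and -0.11 without SKO, with estimates from -0.29 for Kera to 0.07 for Omd. In neither arm did any of the genes reach an unadjusted p under 0.05 with cluster B. The cluster B effect with SKO minus without SKO had a median of 0.02, from -0.15 for Ogn to 0.22 for Dcn.

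**Figure D4:**
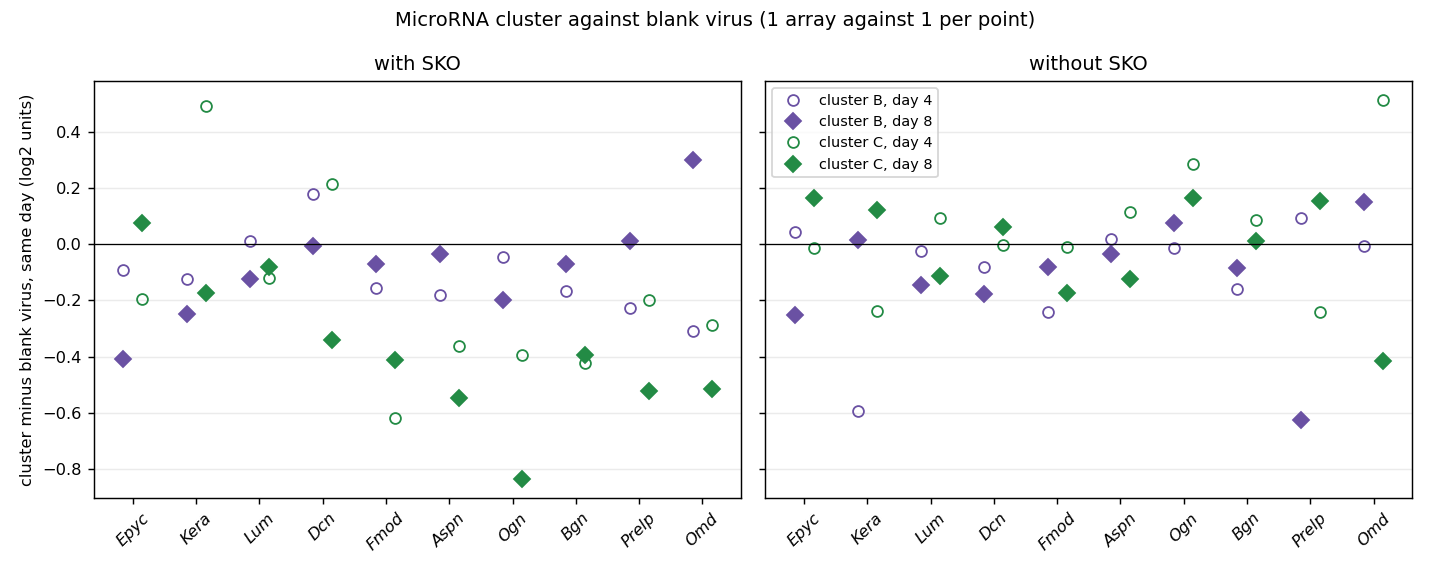
Cluster B (purple) or cluster C (green) minus blank virus on the same day, in log2 units (vertical axis), for the 10 genes with SKO (left) and without SKO (right). Each point is 1 array minus 1 array, with open circles for day 4 and filled diamonds for day 8. With SKO both green points of Ogn, Fmod, Aspn and Bgn lie at -0.36 or lower.

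The other family relatives were tested, since the rule did not use them. Their list was drawn up with earlier results of these data known, so their calls are no independent support for the family's differences. Of 8 listed genes 7 were measured. Without SKO 2 of the 7 rose from day 4 to day 8, where 4.05% of all genes rose, and 0 fell, where 4.63% did. Ecm2 rose by 0.95 ± 0.14 (SE, limma adjusted p = 0.00472) and Podn, which encodes podocan, by 0.80 ± 0.10 (adjusted p = 0.0027), and both passed in all 12 fits that left out 1 array. Those 12 fits are not 12 separate checks of a day difference. Leaving out either day of a virus gives the same estimate, and leaving out an array of the other arm does not change it. Ecm2 was dim, with 3.21 to 3.40 at day 4 and 4.15 to 4.39 at day 8 without SKO. With SKO it stood at 2.54 to 2.94 and then 3.34 to 3.63. All but its day 8 arrays without SKO lay below the lower quartile. Its rise without SKO and its SKO difference at day 8 are therefore lower bounds. Podn stood at 6.81 to 7.07 and then 7.67 to 7.80 without SKO, and at 5.19 to 5.54 and then 6.30 to 6.71 with SKO. The change by day differed between the arms for 0 of the 7, where 1.97% of all genes had a higher and 1.0% a lower day difference with SKO. The difference between the arms was -0.28 ± 0.19 for Ecm2 (limma adjusted p = 0.505) and 0.34 ± 0.14 for Podn (0.267). That of Ecm2 is not read, since its SKO arrays lay below the lower quartile. At day 8, 3 of the 7 were lower with SKO, where 12.7% of all genes were lower and 13.4% higher. These were Podnl1 (-1.25), Podn (-1.21) and Ecm2 (-0.81), each in all 12 fits that left out 1 array. Optc, Chad, Chadl and Nyx passed in none of these 3 comparisons, with day differences without SKO of 0.07, 0.23, 0.28 and 0.19.

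Enzymes that build the sugar chains were compared next, in lists that were also drawn up with earlier results in view. Of 8 genes for the linker that joins chain to core protein, 0 passed for the day difference without SKO and 0 for its difference between the arms. At day 8, 1 was higher and 4 lower with SKO, where 13.4% of all genes were higher and 12.7% lower. The calls of lower genes were not stable, since leaving out 1 array gave 1 to 3 lower. Of 16 chondroitin and dermatan sulfate genes, 9 were lower and 3 higher with SKO at day 8, with a median of -0.51 (7 to 9 lower and 2 to 3 higher on leaving out 1 array), where 12.7% of all genes were lower and 13.4% higher. The epimerase gene Dse (-1.23 ± 0.11 SE), the polymerase gene Chsy1 (-1.22 ± 0.10) and the dermatan sulfotransferase gene Chst14 (-0.94 ± 0.11) were lower, and the sulfotransferase gene Chst3 was higher by 1.71 ± 0.12, each passing in all 12 fits that left out 1 array; these 4 were picked after their values were seen. Chsy3, another chondroitin polymerase gene, was the 1 gene of this list whose day difference differed between the arms, by -1.54 ± 0.19 (limma adjusted p = 0.00464). It stood at 5.04 and then 5.59 without SKO, and at 5.78 and then 4.79 with SKO. Its own rise without SKO of 0.55 (adjusted p = 0.0406) ended on leaving out any 1 of the 6 arrays without SKO or either array with SKO and cluster B (up to 0.173). Of 10 keratan sulfate genes 0 passed for the day difference or its difference between the arms. At day 8, 2 of these 10 were lower and 1 higher with SKO, near the 12.7% and 13.4% of all genes.

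Of the collagens that these proteoglycans bind, 15 of 16 fibril and fibril-associated genes were lower at day 8 with SKO and 0 higher, with a median of -1.05 (13 to 15 lower on leaving out 1 array), where 12.7% of all genes were lower and 13.4% higher. Examples, picked after their values were seen, were Col3a1 (-1.55 ± 0.10 SE), Col12a1 (-1.46 ± 0.11), Col1a1 (-1.40 ± 0.11) and Col1a2 (-1.26 ± 0.11), and Col6a3 missed the threshold with 0.24. Col1a1, Col1a2 and Col3a1 are also among the fibroblast markers, so this count and that marker level share genes. The day difference without SKO had a median of 0.11 in this list, and 2 genes rose. Col14a1, which encodes a fibril-associated collagen, rose by 1.91 ± 0.09 (limma adjusted p = 1.67e-05) without SKO, from 7.04 to 8.95, and stood at 7.09 and 7.99 with SKO. Its day difference was smaller with SKO by -1.01 ± 0.13 (adjusted p = 0.00629), in all 12 fits that left out 1 array. Col9a1 rose by 0.58 (adjusted p = 0.015), a call that ended without any 1 of the blank virus and cluster B arrays without SKO (up to 0.0856). Col9a1 (-0.71, adjusted p = 0.049) and Col6a3 (0.68, 0.0418) also differed by day between the arms, and both calls ended on leaving out any 1 of the 12 arrays (up to 0.166 and 0.124).

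Of 13 genes that process or cut matrix proteins, 3 rose and 2 fell by day without SKO, where 4.05% of all genes rose and 4.63% fell. Leaving out 1 array gave 1 to 3 that rose and 0 to 2 that fell, with 1 that rose without any 1 of the 6 arrays without SKO and 0 that fell without a cluster B or cluster C array without SKO. Mmp3, which encodes the protease stromelysin, rose by 1.14 ± 0.15 (limma adjusted p = 0.00288) in all 12 fits that left out 1 array. Its day difference was smaller with SKO by -1.05 ± 0.21 (adjusted p = 0.035), which ended without either cluster B array of either arm, a cluster C array with SKO or a blank virus array without SKO (up to 0.11). Tll1, a procollagen C-proteinase gene, differed by -0.94 (adjusted p = 0.0133), which ended without a cluster C array of either arm or a cluster B array without SKO (up to 0.0613). The calls of Mmp2 (0.61), Adamts1 (-0.52) and Mmp14 (-0.57) without SKO had adjusted p of 0.0123, 0.0233 and 0.0115. They ended without any 1 of the 6 arrays without SKO for Mmp2 (up to 0.0713) and Adamts1 (0.114), and without a cluster B or C array without SKO for Mmp14 (0.0774). At day 8, 7 of the 13 were lower and 2 higher with SKO, where 12.7% of all genes were lower and 13.4% higher.

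Among 21 ligands and receptors of the family, 4 rose and 3 fell by day without SKO, where 4.05% of all genes rose and 4.63% fell. Leaving out 1 array gave 0 to 3 that rose and 1 to 3 that fell, with 0 that rose without a cluster B array without SKO and 1 that fell without a cluster C array without SKO. Bmp4 and Vegfa, picked after their values were seen, rose and Igf1r fell, and these calls ended in 6, 10 and 8 of the 12 fits that left out 1 array. Tgfb2, a growth factor of the family that decorin binds, fell by 0.77 ± 0.11 (SE) on the log2 scale (limma adjusted p = 0.00492) in all 12 fits that left out 1 array. Met, the hepatocyte growth factor receptor, fell by 0.65 (adjusted p = 0.00857), which ended without either cluster C array without SKO (0.065). Itga2 rose by 0.66 and Ccn4 by 0.47 (adjusted p = 0.0188 and 0.0224), and these ended without a blank virus or cluster B array without SKO for Itga2 (up to 0.113) and without any 1 of the 6 for Ccn4 (0.126). The day difference was larger with SKO for P2rx7 (0.81, adjusted p = 0.0183) and Igf1r (0.68, adjusted p = 0.0322). The P2rx7 call ended without a blank virus or cluster C array of either arm (up to 0.0767) and the Igf1r call without any 1 of the 12 arrays (up to 0.116). At day 8, beside the same shares of all genes as for the collagens, 6 of the 21 were lower with SKO, among them Tgfb3 (-1.82 ± 0.11 SE, picked after its value was seen), and 4 higher.

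Of 24 other proteoglycan core proteins, 6 rose and 3 fell by day without SKO, where 4.05% of all genes rose and 4.63% fell. Leaving out 1 array gave 1 to 6 that rose and 0 to 2 that fell, with 1 that rose without a cluster B or cluster C array without SKO and 0 that fell without a cluster B array without SKO. Srgn, which encodes serglycin, a proteoglycan of secretory granules in blood cells, rose by 1.15 ± 0.14 (limma adjusted p = 0.00219) without SKO and by 1.51 ± 0.20 more with SKO (adjusted p = 0.00591), in all 12 fits that left out 1 array. It stood at 4.67 and then 5.81 without SKO, and at 4.86 and then 7.51 with SKO. Smoc2 rose by 0.57 (adjusted p = 0.0246), Spock3 fell by 0.55 on the log2 scale (0.0408) and Gpc4 fell by 0.76 (0.00829). These calls ended without any 1 of the 6 arrays without SKO for Smoc2 (up to 0.132), any 1 of the 12 for Spock3 (0.169) and either cluster B array without SKO for Gpc4 (0.0551). Spock2 (1.15) and Gpc1 (-0.70) differed by day between the arms with adjusted p of 0.028 and 0.0394. The Spock2 call ended without any 1 of 10 arrays, all but the 2 with SKO and cluster C (up to 0.0901), and the Gpc1 call without any 1 of the 12 (0.135). At day 8, 12 of the 24 were lower and 3 higher with SKO, where 12.7% of all genes were lower and 13.4% higher. Leaving out 1 array gave 8 to 11 lower.

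**Figure D5:**
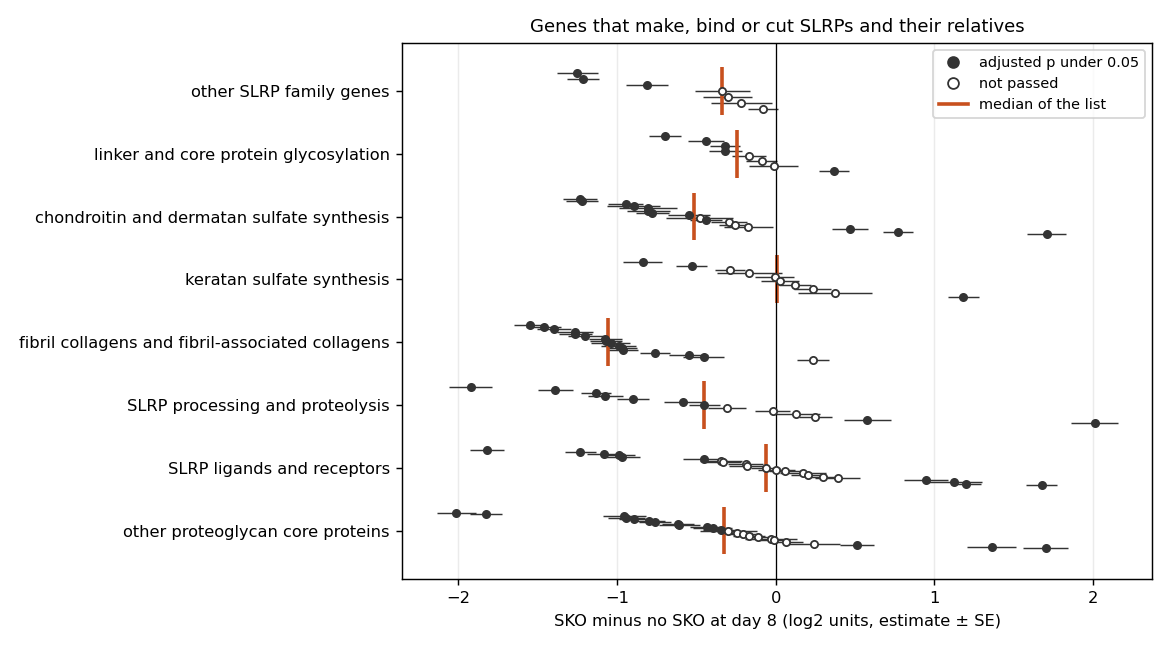
SKO minus no SKO at day 8 in log2 units (horizontal axis, limma estimate with its SE) for the measured genes of 8 lists, with filled points for an adjusted p under 0.05, open points for genes that did not pass and an orange line at each list's median. All but 1 of the 16 collagen genes lie below 0 and passed, with a median of -1.05.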

How the data were processed

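Expression was measured on 12 Affymetrix whole-transcript arrays of mouse embryonic fibroblasts, with 100 ng of total RNA as input and biotin as label, per the labels' protocols. The authors deposited log2 values of 28853 probe sets, and the submitters' processing notes list RMA and Partek with no version. RMA brings the arrays to a common distribution, which hides a shift common to most genes. The genome build of the processing is not given in the sources used here. A description field that names a day 3 culture is the same for all samples and was not used, and days were taken from the titles.

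Gene names came from the platform annotation, which gives 1 gene for 21789 probe sets, several for 1621 and none for 5443. Entrez identifiers of 21698 matched RefSeq of GRCm38.p6, and 0 symbols changed. For 999 genes with several probe sets, the brightest by mean represented the gene. Start regions came from RefSeq of the same build.

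Tests used limma 3.58.1 (R 4.3.3), in 1 fit over the 12 arrays with 8 coefficients (SKO, day, cluster, and SKO by day and by cluster) and 4 residual degrees of freedom, for 13 comparisons, with Benjamini-Hochberg adjustment over 19938 genes. The fit was tested on simulated data. The number of arrays limits the precision. The 10 genes and the lists (116 pathway genes, 115 measured, and 64 markers, 61 measured) were chosen with earlier results of these data known. Named were the 10 genes, their measured neighbours and other family genes, per list up to 2 genes that rose and 2 that fell most by day without SKO or in its difference between the arms, and the genes of most similar profile. Genes named for their SKO difference at day 8 were picked after their values were seen. Alternatives were each arm alone, an additive fit, cluster effects free to differ between days, robust empirical Bayes with a trend, equal array medians, quantile normalization, only brighter genes, probe sets averaged per gene, all probe sets tested, a 1.5-fold minimum and leaving out each array. Leaving out either day of a virus within an arm gives the same estimate of a day difference, since the array left over carries no weight in it. Tables and figures used Python 3.11.15, numpy 2.4.6, pandas 2.3.3 and matplotlib 3.10.9.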

Additional observations from a re-analysis of the deposited data

Results flagged for a closer look

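For 2 of the 10 genes, every virus gave a higher value at day 8 without SKO and a lower one with SKO. With SKO the day difference of Lum ran only from -0.06 with cluster C to -0.23 with cluster B. That of Kera was -0.002 with blank virus, -0.13 with cluster B and -0.67 with cluster C, at low levels. The change by day with SKO minus that without SKO was -1.71 for Lum and -2.99 for Kera. The difference was not tested, because these values chose the genes.

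Among the pathway genes, 11 had a day difference that differed between the arms by limma's interaction at an adjusted p under 0.05. It was lower with SKO for Chsy3 (-1.54), Mmp3 (-1.05), Col14a1 (-1.01), Tll1 (-0.94), Col9a1 (-0.71) and Gpc1 (-0.70). It was higher with SKO for Srgn (1.51), Spock2 (1.15), P2rx7 (0.81), Col6a3 (0.68) and Igf1r (0.68). The calls of Chsy3, Col14a1 and Srgn held in all 12 fits that left out 1 array, and each of the others ended in at least 6 of them. Fits without either day of the same virus and arm share 1 estimate, so the 12 are not separate checks.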

How the results depend on the processing

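With a mean-variance trend and robust empirical Bayes, 1 of the 10 genes (Ogn) passed with SKO for cluster C against blank virus, compared with 0 as reported, and the cause was not tested. The median day difference without SKO was 1.33 after quantile normalization. No result changed its sign in a called comparison, and the other 96 medians and 171 counts of the 10 genes stayed within the spread or the count they are compared with. Among estimates of the 10 genes, 33 by day or SKO moved by more than the spread between viruses and 972 did not. Among these, signs changed for values near 0: the day difference of Epyc with SKO (from -0.14 to 0.15 on leaving out 1 array), the difference between the arms of Bgn (-0.01 to 0.06) and Omd. Of the cluster estimates of the 10 genes, 99 changed sign without a call and 1596 kept sign and call. For Kera, cluster C against blank virus with SKO ran from -0.14 to 0.46 on leaving out 1 array. For the pathway lists, 186 counts moved by over 1.5 times and 790 did not, mostly where a count was small. Letting cluster effects differ between days ended the calls of Col6a3, Col9a1, Gpc1, Igf1r, Mmp3, P2rx7, Spock2 and Tll1 between the arms (adjusted p from 0.0589 to 0.118), with 2 residual degrees of freedom. Each arm alone gives no SKO comparison, an additive fit no difference of cluster effects, and a second probe set was not run, since each of the 10 genes has 1. No condition had a replicate, and Epyc, Omd and, at low levels, Kera lie near the lower quartile of the arrays, which limits their differences.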
